A study of Mus musculus with 4 samples.

Results

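Basal-type keratinocytes, the Krt5- and Krt14-positive cells that line the basement membrane of the epidermis and the outer root sheath of the hair follicle, were examined in 4 single-cell RNA libraries of mouse back skin. Among 13877 kept cells, 207 were basal-type by the number of UMIs (unique molecular identifiers, each standing for 1 captured RNA molecule) of their keratins. A member had at least 5 UMIs of Krt5 and at least 5 of Krt14, fewer than 5 of Krt10, and fewer than 2 of the 6 inner root sheath and hair shaft keratins Krt71, Krt25, Krt27, Krt28, Krt73 and Krt35 at 5 UMIs or more. Krt10 marks keratinocytes that have left the basal layer, and the other 6 keratins mark the inner sheath and shaft that grow inside the follicle.

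The study bears, by its title, on mesenchymal progenitors in age-related hair loss, and its sort was aimed at follicle mesenchyme, not at epithelium. All mice were C57BL/6J and carried α-SMACreERT2, an inducible recombinase under the smooth muscle actin promoter, and all received 4-hydroxytamoxifen (1 mg per injection) at postnatal days 3 and 4. The back skin dermis was dissociated after the epidermis had been peeled off, and reporter-positive or Cd26-positive cells that were also Itga9- or Cd200-positive were sorted. The 4 groups hold 1 library each, with 2 mice per sample and no statement on pooling. Mice of 2 months and of 18 months with the RosaYFP reporter were run with 10x 3' chemistry version 2, and mice of 2 months and of 12 months labelled RosaTDTomato with chemistry version 3. Values below follow the order 2 months version 2, 18 months version 2, 2 months version 3, 12 months version 3. Chemistry and labelled reporter cannot be told apart, and Xist, the RNA made from the silenced X chromosome of female cells, went with them at 0, 0, 1076 and 1035 CPM in the members. CPM here are the UMIs of a gene per 1000000 UMIs summed over the cells of a group in a library.

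Basal keratinocytes anchor the epithelium to the basement membrane through hemidesmosomes, divide, and supply the suprabasal layers that stop dividing and switch to Krt1 and Krt10. In the follicle the basal layer continues as the outer root sheath and holds the bulge, where Sox9, Lhx2, Lgr5 and Cd34 are expressed. In the epidermis between follicles basal cells express Ly6a, which fibroblasts also express. The transcription factor p63, encoded by Trp63, maintains the basal program in both places.

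The members numbered 18, 51, 85 and 53. They were 1.04% (exact 95% interval 0.618 to 1.64), 2.04% (1.52 to 2.67), 1.53% (1.22 to 1.89) and 1.30% (0.973 to 1.69) of the kept cells. The intervals cover counting error only. The share was highest at 18 months and lowest in the 2-month library of the same chemistry, and the version 3 pair lay between them. Thinning each cell to 2000 UMIs before the gate gave 0.925%, 0.878%, 1.25% and 1.07%, so the order of the version 2 pair did not hold. The gate stayed at 5 UMIs, so thinning also made it stricter. In that pair members went from 18 to 16 at 2 months and from 51 to 22 at 18 months. Their median Krt5 before thinning was 45.5 and 21 UMIs. Whether depth or keratin level moved the order was not tested. Of the cells that passed on Krt5 and Krt14, 50 of 267 failed on Krt10 and 10 on the sheath keratins. The members included 26 cells whose lower value of Krt5 and Krt14 was 5 to 9 UMIs, and 10 cells with 3 or 4 UMIs lay just outside the gate.

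Cells with Krt10 at 5 UMIs or more, called suprabasal here, numbered 369, 104, 189 and 129, and inner root sheath cells 8, 12, 34 and 31. Basal-type cells were 4.56% (2.72 to 7.11) of the keratin-gated cells at 2 months in version 2, and 30.5% (23.7 to 38.1), 27.6% (22.7 to 33.0) and 24.9% (19.2 to 31.2) in the other libraries. The 2-month version 2 library stood apart through its 369 suprabasal cells, 21.3% of its kept cells against 3.16% to 4.15% elsewhere.

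**Figure D1:**
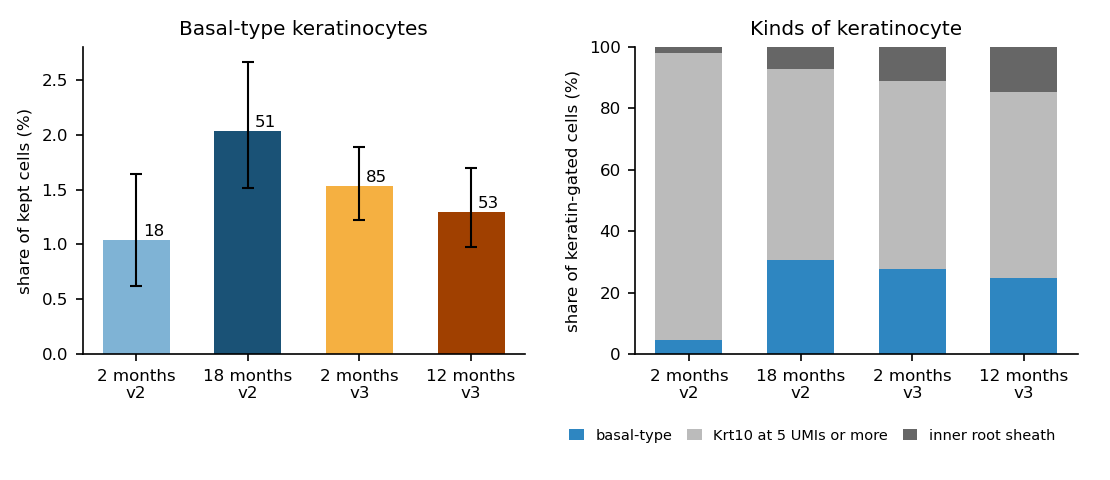
The left panel plots basal-type keratinocytes as a share of kept cells (%) in each library, with exact 95% intervals and the number of cells above each bar. The right panel plots the split of keratin-gated cells (%) into basal-type, Krt10-positive and inner root sheath cells: the basal-type share is 4.56% in the 2-month version 2 library and 24.9% to 30.5% in the other 3.

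The members held a median of 10338, 11757, 12044 and 14139 UMIs and 2376, 3018, 2895 and 2986 genes per cell. Suprabasal cells were deeper, with medians of 15668 to 28441 UMIs. Summed over members the libraries gave 246102, 638939, 1465977 and 908207 UMIs, so the 2-month version 2 profile was the thinnest, and 1 of its cells supplied 22.4% of it. In the other 3 libraries the largest cell supplied 4.39% to 7.47%. The libraries shared few cell barcodes: 7 kept barcodes in the version 2 pair, 11 in the version 3 pair, 1 of them among members, and 1 between the 2-month libraries.

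RNA of other cell types was present in part of the members. Of the members, 2, 16, 33 and 9 (11.1%, 31.4%, 38.8% and 16.98%) held at least 5 UMIs of 2 or more of 10 mesenchymal and immune genes such as Col1a1, Sparc, Acta2 and Cd74. The 10 fibroblast markers summed to 784, 4630, 2534 and 1186 CPM in the members, against 14414 to 42881 in the other kept cells, and none was at 0. The 12 macrophage and dendritic markers summed to 3507, 1496, 1675 and 1240 CPM, with 3 and 1 of them at 0 in the version 2 libraries, against 3308 to 11771 in the other kept cells. The 10 dermal sheath and muscle markers summed to 102, 610, 1944 and 395 CPM. The 8 endothelial markers summed to 6.61 to 17.2 CPM, with 6, 4, 2 and 6 of them at 0, and melanocyte markers to 12.2 to 17.1 CPM. Whether this RNA came from doublets or from free RNA was not tested.

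The genes of the rule had these levels, given as description. Krt5 reached 5465, 2398, 5832 and 7765 CPM in the members, against 34.3 to 70.0 in the other kept cells. Krt14, its filament partner, reached 15010, 4680, 13341 and 18262 CPM, against 152 to 577. Both were lowest at 18 months. In suprabasal cells Krt5 was at 66.2, 602, 693 and 422 CPM. The 250 bases before the transcription start of both genes are shown because these are the genes that choose the cells. They come from RefSeq's table for GRCm38.p6, 5′ to 3′ on the minus strand of each gene, chr15:101712906-101713155 for Krt5 and chr11:100206031-100206280 for Krt14. Capitals mark a match to the half-site of the p53 family, to which p63 belongs.
Krt5: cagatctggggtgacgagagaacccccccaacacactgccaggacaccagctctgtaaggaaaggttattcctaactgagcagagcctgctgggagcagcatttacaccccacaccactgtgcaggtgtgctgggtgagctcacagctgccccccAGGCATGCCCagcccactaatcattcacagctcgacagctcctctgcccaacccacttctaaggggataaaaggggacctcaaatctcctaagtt
Krt14: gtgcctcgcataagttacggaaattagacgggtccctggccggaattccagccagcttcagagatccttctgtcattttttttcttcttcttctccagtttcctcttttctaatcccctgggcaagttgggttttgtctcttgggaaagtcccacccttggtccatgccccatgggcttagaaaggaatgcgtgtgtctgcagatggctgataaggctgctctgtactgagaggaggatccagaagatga
The Krt5 window held 1 match, which begins 95 bases before the start, and the Krt14 window held none. Such a match was present in 536 of the table's 32851 windows (1.63%). Counting both strands and allowing overlaps, TATAAA was in 4063 windows (12.4%), the AP-1 motif TGANTCA in 2217 (6.75%) and the AP-2 motif GCCNNNGGC in 4509 (13.7%). None of these 3 was in the Krt5 or Krt14 window. Among 14 of the 27 leading and rule genes that matched the table, the half-site was in 1 (Krt5), TATAAA in 3 (Col17a1, Phgdh and Plet1), TGANTCA in 2 (Mt2 and Plet1) and GCCNNNGGC in 0. The matches are letters in a window, not binding sites.

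Krt15, the basal marker that the rule did not use, was checked against the name basal-type. It was at 4827, 3036, 4321 and 3907 CPM in the members, 47.6, 43.5, 41.9 and 22.3 in the other kept cells, and 99.1, 337, 427 and 182 in suprabasal cells. Of the members, 100%, 84.3%, 91.8% and 92.5% had a Krt15 UMI. In the other kept cells 3.51% to 6.67% did, which is the background to read these shares against. In every library the members were above both other groups.

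Krt15 led the 1621 genes at 50 CPM or more in the members of every library, ranked by their lowest fold over the 4 libraries against the other kept cells (69.8- to 175-fold). Col17a1, a collagen that spans the membrane at hemidesmosomes, followed at 471, 305, 465 and 470 CPM against 4.47 to 7.63 (40.0- to 105-fold). Ccl27a, a skin chemokine, was steady at 496, 582, 508 and 529 CPM (15.9- to 18.8-fold). Sox9, a transcription factor of the outer root sheath, was at 110, 335, 289 and 181 CPM against 7.34 to 11.5 (14.9- to 32.4-fold). Trp63 was at 118, 326, 183 and 173 CPM (8.23- to 35.5-fold). The integrin Itga6, the laminin receptor of hemidesmosomes, was at 256, 135, 238 and 213 CPM (10.7- to 21.0-fold). The lowest folds of the other leading genes ran down to 3.56 and included Plek2, Tns4, Ptn, Acp5, Nfib, Phgdh, Palmd, Mcm7, Apoe, Fosl1 and Plet1. The metallothionein Mt2, which binds zinc, was at 2438, 1931, 1422 and 1393 CPM (4.52- to 10.0-fold). Because the keratin gate chose these cells, none of these folds was tested.

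Against suprabasal cells the members were higher in adhesion genes and lower in differentiation genes. The gate split these groups on Krt10, so this contrast is given as description and was not tested. The 14 hemidesmosome and basal adhesion genes summed to 1703, 1706, 2220 and 2246 CPM, against 216, 456, 484 and 492 in suprabasal cells, and 13 of 14 were higher in all 4 libraries. Itgb4, the partner of Itga6, was at 40.6, 54.8, 103 and 119 CPM against 2.78 to 6.18. Lamb3, a chain of the laminin that hemidesmosomes bind, was at 85.3, 39.1, 81.9 and 69.4 CPM against 0.793 to 8.18. Against the other kept cells, 11 of the 14 were higher in all 4 libraries. Itgb1 was the 1 gene lower there in all 4 libraries, at 81.3, 124, 246 and 281 CPM against 169.5, 237, 685 and 713.

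The 20 suprabasal differentiation genes showed the reverse, with 18 of 20 lower than in suprabasal cells in every library and 0 higher. They summed to 14478, 7547, 12283 and 11557 CPM against 65618 to 89224 (lowest and highest). Lgals7, a galectin of stratified epithelia, was the main part of the members' sum at 9301, 5677, 7783 and 6955 CPM, with a UMI in every member. Krt1 was at 394, 59.5, 69.6 and 63.9 CPM against 5498 to 18302 in suprabasal cells. The highest Krt1 value in members came from the library with the most suprabasal cells.

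**Figure D2:**
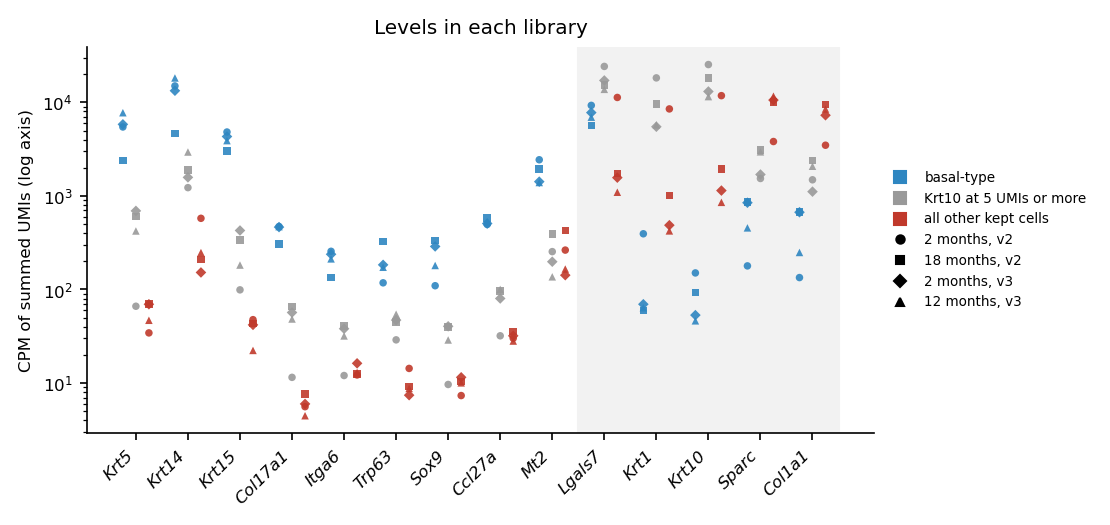
CPM of summed UMIs (log axis) of 14 genes in basal-type, Krt10-positive and all other kept cells, 1 symbol per library. Col17a1, Itga6, Trp63 and Sox9 of basal-type cells sit above both other groups in every library, and the shaded genes, Lgals7, Krt1, Krt10, Sparc and Col1a1, are those that suprabasal or mesenchymal cells hold at higher levels.

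Desmosome and junction genes lay between. Of 17, 9 were higher than in the other kept cells in every library, and against suprabasal cells 4 were higher and 7 lower. Perp, a desmosomal membrane protein, was at 1564, 1244, 1284 and 1277 CPM against 3560 to 4297 in suprabasal cells. Dsg3, the desmoglein of lower layers, went the other way, at 40.6, 18.8, 67.5 and 59.5 CPM against 2.51 to 9.18. The 22 immediate early genes summed to 13543, 13264, 13929 and 13418 CPM in the members, close to level over the libraries, against 7129 to 11728 in the other kept cells. The 18 inner root sheath and hair shaft genes, none of them used by the rule, summed to 56.9, 153, 85.9 and 95.8 CPM.

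Of the sorting genes, Itga9 and Cd200 were low in these cells. Itga9 was at 0, 3.13, 3.41 and 1.10 CPM in the members against 15.3 to 29.7 in the other kept cells. Cd200 was at 16.3, 86.1, 66.8 and 26.4 CPM against 249.8 to 353. Dpp4, which encodes Cd26, was at 20.3, 6.26, 6.14 and 5.51 CPM. A UMI of Itga9 or Cd200 was found in 4, 26, 29 and 10 members (22.2%, 51.0%, 34.1% and 18.9%), against 58.3% to 79.2% of the kept cells outside the keratin gates. The eYFP reporter entry was at 48.8, 221, 273 and 104 CPM against 1196 to 3000, also in the version 3 libraries whose labels name TDTomato. RNA of a sort gene below detection does not show that the protein was absent at the sort.

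Among the members, some held genes of the follicle and others Ly6a. Ly6a was listed here both with the interfollicular genes and with the genes of the upper follicle and gland duct. A Ly6a UMI therefore does not place a cell between follicles. A UMI of Sox9, Lhx2, Lgr5 or Cd34 without Ly6a was found in 4, 33, 32 and 18 members, Ly6a without those genes in 7, 9, 30 and 19, both in 5, 5, 17 and 16, and neither in 2, 4, 6 and 0. As shares, follicle-only members were 22.2% (6.41 to 47.6), 64.7% (50.1 to 77.6), 37.6% (27.4 to 48.8) and 34.0% (21.5 to 48.3). Ly6a-only members were 38.9% (17.3 to 64.3), 17.6% (8.40 to 30.9), 35.3% (25.2 to 46.4) and 35.8% (23.1 to 50.2). The 18-month library had the largest follicle-only share and the smallest Ly6a-only share. Lgr5 had a UMI in 54.9% of the members of that library against 0%, 22.4% and 15.1% in the others. In the other kept cells of the 4 libraries 0.935%, 7.21%, 2.30% and 3.72% had one, and 0 of 18 members has an exact upper limit of 18.5%, which limits members with a UMI and not members that express the gene. Cd34 had a UMI in 47.1% of the 18-month members and in 5.56% to 9.43% elsewhere, beside 27.0% of the other 18-month cells and 6.90% to 17.5% of those elsewhere. With 1 library per age and chemistry this could not be tested.

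Thinned to 5000 UMIs, which left out 9 members, follicle-only shares were 22.2%, 66.0%, 40.5% and 31.4% and Ly6a-only shares 33.3%, 16%, 36.7% and 47.1%. Over all libraries, thinning took members with both from 20.8% to 11.1% and members with neither from 5.80% to 12.1%. Without the members with RNA of other cells the follicle-only and Ly6a-only shares were 25.0%, 60%, 38.5% and 34.1%, and 37.5%, 22.9%, 38.5% and 38.6%. In the other kept cells, Sox9 was found in 3.58% to 6.76% and Ly6a in 28.3% to 60.8%, so a Ly6a UMI alone does not separate a basal cell's own RNA from that of fibroblasts.

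Levels of genes outside those 5 were compared between follicle-only and Ly6a-only members. Krt17, a keratin of the outer root sheath, was at 3481 CPM summed over the 87 follicle-only members and at 510 over the 65 Ly6a-only members, and it was higher on the follicle side in each library (1373, 3783, 3141 and 4060 against 296, 1490, 413 and 473). Krt14 was at 4754 against 20039 CPM, lower on the follicle side in each library (4953, 3638, 5855 and 4467 against 18580, 11263, 19113 and 24741). Krt5 was at 2377 against 8517, Krt15 at 3080 against 6042 and Col17a1 at 291 against 593. Trp63 had no common direction, at 53.8, 372, 201 and 281 by library against 120, 178, 203 and 114. Krt14, Krt16 and Krt17 are close relatives, and reads may be split among them in part.

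Some genes, named after their values were seen, were higher in the follicle-only members. Sfrp1, an inhibitor of Wnt signalling, was at 504 CPM in follicle-only members and 26.2 in Ly6a-only members. Sostdc1, which inhibits BMP and Wnt signalling, was higher in 3 libraries and lower at 18 months (188, 474, 245 and 146 against 24, 823, 9.83 and 3.26). Hes1, a target of Notch, was at 421 against 36.9, Id1, a target of BMP signalling, at 318 against 34.9, and Vdr, the vitamin D receptor, at 171 against 29.1. Pthlh, a parathyroid hormone-like ligand, was at 186 CPM (215, 304, 94.4 and 146 by library) and had no UMI in the Ly6a-only members. Gjb2, a gap junction protein, was at 557 against 1.94 CPM although it is on the interfollicular list. Fos was at 3185 against 678.

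Other genes, also named after their values were seen, were higher in the Ly6a-only members. Serpinb2, a protease inhibitor, was at 2571 CPM against 61.8 in follicle-only members, and Ly6d was at 2714 against 294. The stefin genes BC100530 and Stfa3 were at 892 against 0.882 and 739 against 2.65. They are near-identical copies of one family, so reads may be split among them. Il1r2, a decoy receptor of interleukin 1, was at 169 against 7.94, the receptor antagonist Il1rn at 111 against 8.82, and Il33, a related alarm cytokine, at 172 against 18.5. The signalling receptor Il1r1 was at 6.79 against 15.0. Wnt10a, a Wnt ligand, was at 185 against 22.1. Mki67, made by dividing cells, was nearly even at 55.6 and 67.9. These comparisons rest on cells chosen by 5 of the same cells' genes and carry no test.

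**Figure D3:**
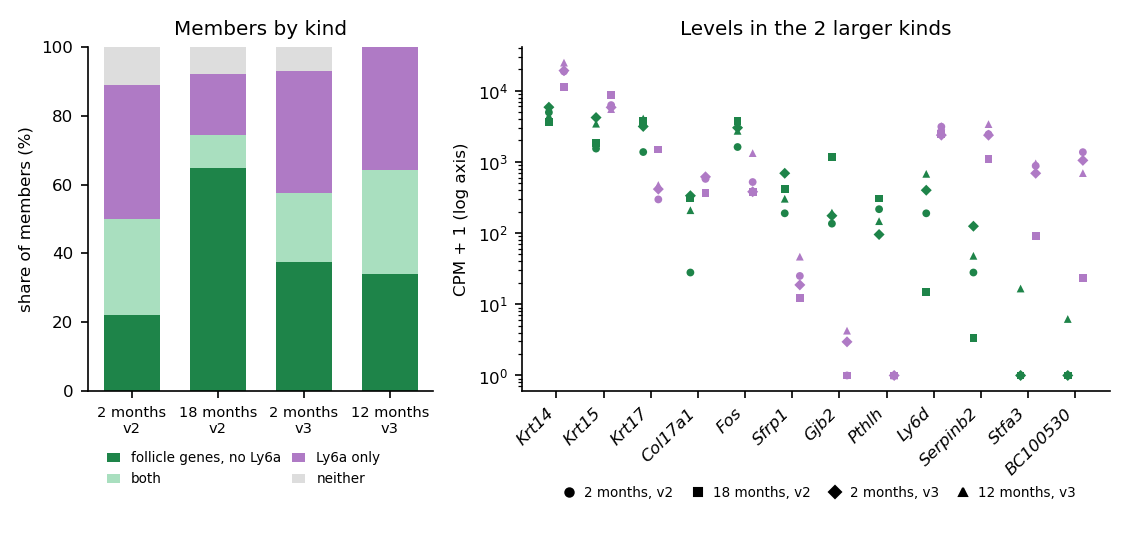
The left panel plots the share of members (%) in each library with follicle genes only, both, Ly6a only or neither. The right panel plots CPM + 1 (log axis) of 12 genes in follicle-only (green) and Ly6a-only (purple) members, 1 symbol per library: Krt17 and Sfrp1 lie higher and Krt14 and Serpinb2 lower on the follicle side in all 4 libraries, and 64.7% of the 18-month members are follicle-only.

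Correlations over the 207 members, on log2 of UMIs per 10000 plus 1 with library means removed, described the same axis. Sox9 went with Krt17 (r = 0.55) and with Lhx2 (0.54), and against Ly6a (-0.51) and Mt2 (-0.62). Krt15 went with Col17a1 (0.39) and against Krt17 (-0.32). These cells share libraries and depth, so the values are descriptions without a test.

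A small group carried matrix genes. In 12 members (0, 6, 3 and 3; 5.80%) at least 2 of Shh, Lef1 and Msx2 had a UMI. These genes are expressed by the hair matrix, the dividing cells at the follicle base. The group was at 76.7 CPM of Krt15 against 4296 in the other 195 members, 38.3 against 466 of Col17a1, 1112 against 14074 of Krt14 and 1546 against 2042 of Krt17. Dcn, a fibroblast gene, was at 2240 CPM in the group against 126 in the others, and every one of the 12 had a Dcn UMI.

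Members held more RNA of cell division genes than the cells around them. The 20 S phase genes summed to 967, 836, 842 and 1183 CPM against 262 to 358 in the other kept cells, and 18 of 20 were higher in all 4 libraries. The 20 G2 and M phase genes summed to 890, 1621, 1274 and 2438 against 282 to 406, again with 18 of 20 higher. At least 2 UMIs of Mki67 and Top2a together, both expressed in dividing cells, were found in 2, 8, 18 and 16 members, which is 11.1% (1.38 to 34.7), 15.7% (7.02 to 28.6), 21.2% (13.1 to 31.4) and 30.2% (18.3 to 44.3). At 5000 UMIs per cell the shares were 11.1%, 12.0%, 17.7% and 25.5%, against 4.40%, 0.980%, 1.71% and 1.59% of suprabasal cells and 4.37%, 3.64%, 2.18% and 3.06% of all other kept cells. At 12 months 7 of the 9 members with RNA of other cells met this threshold, and without such members the shares were 12.5%, 14.3%, 15.4% and 20.5%.

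The older libraries, 18 and 12 months together, were then compared with both 2-month libraries on UMIs summed over members, with chemistry as a covariate. No gene passed an adjusted p of 0.05 in edgeR's quasi-likelihood test (0 of 6808 tested, 0.0% called, lowest unadjusted p 0.00139). At an unadjusted p of 0.05, 85 genes (1.25%) passed, 21 higher with age (0.308%) and 64 lower (0.94%), and DESeq2 gave 0 adjusted and 28 unadjusted. The median log2 difference over all genes was -0.00, with 3394 above 0, and 3167 genes moved the same way in both pairs. Without 1 library each and without the chemistry term, 36 genes passed without the 18-month library, 15 without the 12-month, 2 without the 2-month version 2 and 0 without the 2-month version 3 library. Counting 12 months as young, as the series' design does, leaves the 18-month library alone on its side. With the chemistry term kept, the age term then rests on 18 against 2 months in version 2, 1 library against 1. The main fit left 1 residual degree of freedom, and its biological coefficient of variation was 0.351. No gene difference given for the main comparison passed the adjusted test. In sums over cells like these, fewer cells of a kind and less RNA per cell cannot be told apart.

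Heat shock genes, which encode chaperones, lay mostly below 0. Of 12 tested, 11 had a log2 difference below 0 with age and 10 were below 0 in both pairs. Over all 6808 genes tested, 3414 were below 0, and 1250 were below 0 in both pairs. The list's median was -0.62, with -0.50 at 18 months and -0.81 at 12 months, beside -0.00 over all genes tested, and 5 reached an unadjusted p of 0.05 beside a background of 0.94%. Hspb1, a small heat shock protein, was at 4453, 1409, 5304 and 2243 CPM. Each older library lay below its 2-month partner. The log2 difference was -1.55 ± 0.324 (SE of the fit, 2 against 2 libraries, unadjusted p = 0.00365 in edgeR across all genes). Hspa1a, an inducible Hsp70, was at 3129, 1265, 2437 and 1150 CPM, again lower in the older library of each pair (-1.30 ± 0.31, unadjusted p = 0.00674 in edgeR). Its near-identical copy Hspa1b was at 471, 249, 696 and 276 CPM, and reads may be shared between the copies. Hsp90aa1, an inducible Hsp90, was at 1467, 995, 1417 and 687 CPM. Dnajb1, a co-chaperone of Hsp70, was at 1268, 881, 902 and 396 CPM. In these 3 genes too each older library lay below its 2-month partner. Hspa5, the Hsp70 of the endoplasmic reticulum, was the 1 gene above 0, at 337, 540, 596 and 678 CPM. Leaving out each library moved the list's median between -0.77 and -0.47.

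G2 and M phase genes went the other way. All 19 tested had a log2 difference above 0, 16 of them in both pairs (with the prior count of 0.5). Over all 6808 genes tested, 3394 were above 0, and 1917 were above 0 in both pairs. The median of the G2 and M phase list was 0.79, and 5 of its genes reached an unadjusted p of 0.05 beside a background of 0.308%. Mki67 was at 16.3, 42.3, 79.8 and 182 CPM, higher with age within each pair but overlapping across chemistries (log2 1.18 ± 0.385, unadjusted p = 0.0243 in edgeR). Top2a, a topoisomerase of dividing cells, was at 56.9, 113, 176 and 351 CPM. Ccnb2, a mitotic cyclin, was at 24.4, 57.9, 23.9 and 84.8 CPM, with each older library above its 2-month partner. The list's median was -0.10 without the members with RNA of other cells and 0.12 with a gate of 10 UMIs. Without the 12-month library it was 0.04. Mki67 itself differed by -0.46 without the members with RNA of other cells and by -0.47 without the 12-month library, and 1 cell held 63.0% of the Mki67 UMIs at 18 months. The S phase list had 9 of 18 above 0 and a median of 0.03.

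**Figure D4:**
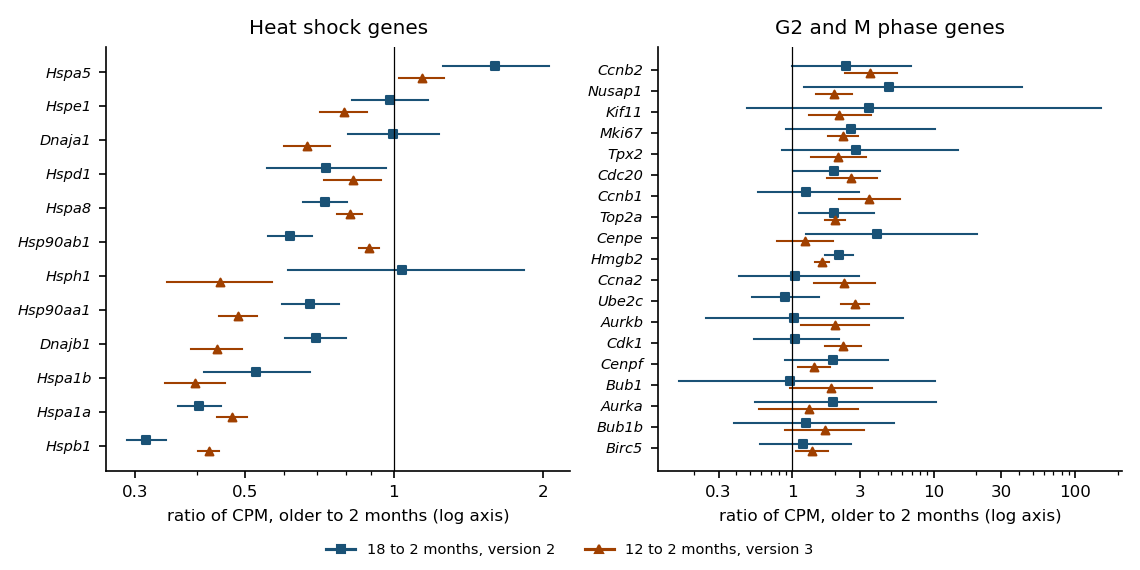
Ratio of CPM in the older to the 2-month library (log axis) of the tested heat shock genes and G2 and M phase genes in the members, for each pair of libraries, with exact 95% intervals for counting error. Hspb1 and Hspa1a lie left of 1 in both pairs, Hspa5 lies right of 1 in both, and most G2 and M phase genes lie right of 1 with wide intervals at 18 months.

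The lists of basal identity showed opposite pairs. The follicle stem cell and outer root sheath list had 14 of 15 genes above 0 in edgeR, but its median was 1.67 at 18 months and -0.55 at 12 months. Sox9 was at 110, 335, 289 and 181 CPM and Lhx2 at 12.2, 81.4, 64.1 and 39.6 CPM, each higher than its 2-month library at 18 months and lower at 12 months. Interfollicular genes were 13 of 18 below 0, with medians of -1.04 and 0.17, and Krt16, a keratin higher in the Ly6a-only members, was at 195, 12.5, 549.8 and 677 CPM. The 3 basal markers had medians of -1.19 and 0.41. Of these markers Krt5 and Krt14 were used by the rule, and both are also among the 18 interfollicular genes. The follicle-only share given above was also highest at 18 months, and its part in these values was not tested.

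Lists of adhesion and regulation had genes on both sides of 0. Hemidesmosome genes were 4 above and 8 below 0 with a median of -0.30 (-0.77 to -0.05 with each library left out), and 0 of 12 reached an unadjusted p of 0.05. Col17a1 differed by -0.40 ± 0.373 (log2, unadjusted p = 0.326 in edgeR) and Itga6 by -0.63 ± 0.395 (unadjusted p = 0.164 in edgeR). The rule did not use Krt15, which differed by -0.51 ± 0.327 (unadjusted p = 0.173 in edgeR). Desmosome and junction genes were 4 above and 10 below, and basement membrane and matrix genes 3 and 9. Basal transcription factors were 6 above and 6 below. Id1, an inhibitor of differentiation factors, was the 1 with an unadjusted p of 0.05, at 89.4, 354, 72.3 and 146 CPM. Its older library lay above the 2-month library in each pair (log2 1.37 ± 0.379, unadjusted p = 0.0125 in edgeR). Immediate early genes, which answer to stimulation within minutes, were 9 above and 12 below 0, ligands 7 and 16, receptors 13 and 14, interferon-related genes 3 and 9, senescence genes 7 and 6, and oxidative stress genes 9 and 8. Cdkn1a, a brake on the cell cycle, was at 284, 62.6, 238 and 271 CPM, and Cdkn2a had a UMI in 2 members at 18 months and 1 at 12 months.

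Among chemokines, duct keratins and immune markers were genes with most of a library's UMIs in 1 cell. Chemokines were 8 of 13 below 0 with a median of -0.79 (-2.23 to 0.06 with each library left out), and 4 were lower at an unadjusted p of 0.05, beside 0.94% of all genes. Cxcl2, which attracts neutrophils, was at 118, 3.13, 37.5 and 4.40 CPM (log2 -4.12 ± 0.701, unadjusted p = 0.00139 in edgeR), and 93.1% of its UMIs at 2 months in version 2 came from 1 cell. Upper follicle and duct genes were 8 of 10 below 0, sebaceous genes 5 of 6, and companion layer and activated keratins 5 of 7, these last with medians of -1.94 at 18 and 0.59 at 12 months. Krt79, a keratin of the gland duct, was at 150, 3.13, 159 and 31.9 CPM, with 97.3% and 72.5% of its UMIs at 2 months in 1 cell of each library. Macrophage and dendritic markers were 11 of 11 below 0 with a median of -0.89.

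**Figure D5:**
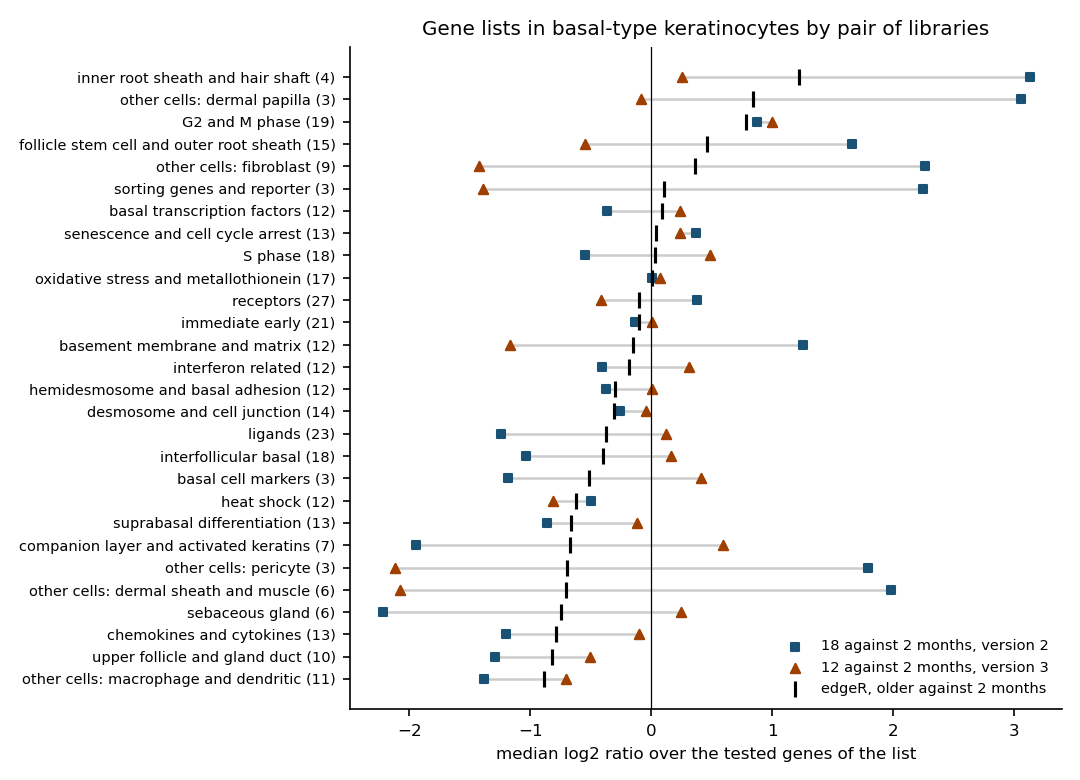
Median log2 ratio over the tested genes of each list (number of genes in brackets) for 18 against 2 months in version 2, 12 against 2 months in version 3, and edgeR over all 4 libraries. Heat shock genes (-0.50 and -0.81) and G2 and M phase genes (0.88 and 1.00) have both pairs on 1 side of 0, while follicle stem cell genes (1.67 and -0.55) and fibroblast genes (2.26 and -1.43) lie on opposite sides.

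The genes with the largest difference in the same direction in both pairs were mostly near the floor of detection. Cldn10, a tight junction protein, was at 0, 87.6, 11.6 and 44.0 CPM (log2 2.73 ± 0.82, unadjusted p = 0.0176 in edgeR). Msx2 was at 8.13, 42.3, 4.77 and 14.3 CPM, and Loxl2, which crosslinks collagen, at 16.3, 48.5, 22.5 and 56.2 CPM. In both genes the older library was above the 2-month library of its pair. Krt28 and Krt27 were also among the 12 genes named as higher, and both are keratins that the rule used. Ly6g6c was at 32.5, 6.26, 46.4 and 5.51 CPM (log2 -2.83 ± 0.588, unadjusted p = 0.00357 in edgeR) and Meg3, a noncoding RNA, at 28.4, 4.70, 123 and 23.1 CPM. Sh3rf2 was at 16.3, 3.13, 17.1 and 3.30 CPM, spread over 19 of the 85 members at 2 months in version 3. In Ly6g6c, Meg3 and Sh3rf2 each older library was below its 2-month partner. Single cells carried much of several of these genes. In 1 cell were 57.4% of the Ly6g6c UMIs at 2 months in version 3, which stood at 19.8 CPM there without it. For Meg3, 1 cell held 85.7% at 2 months in version 2 and 61.9% at 12 months, and for Msx2 53.8% at 12 months. Slpi, also among the 12 named as higher, had 67.8% of its 12-month UMIs in 1 cell.

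The age difference in the members was also tested against that in the other kept cells of the same libraries, which carries the interaction of age and cell group. This fit too left 1 residual degree of freedom, with no replicate library within an age and chemistry. The interaction p-values below therefore do not measure a spread between replicate libraries. The interaction passed an adjusted p of 0.05 in 130 of 14084 genes (0.923%), with 21 higher (0.149%) and 109 lower (0.774%) in the members relative to the others. At an unadjusted p of 0.05 the counts were 617 (4.38%), 179 higher (1.27%) and 438 lower (3.11%). Of the 109 lower genes, 100 had a positive age difference in the other cells, and 20 of the 21 higher genes had a negative one there. In 75 of the 130, 1 cell held at least 50% of the members' UMIs in some library. With members left out that held RNA of other cells 35 genes passed, 9 higher and 26 lower, of which 33 were among the 130, and at an unadjusted p of 0.05 the split turned to 236 higher and 200 lower. With DESeq2 21 genes passed, and with Krt10-positive and sheath keratinocytes as comparator 15.

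Among the lists, 4 of 12 heat shock genes were lower by this test, beside 0.774% of all genes. Hspa1a differed by -1.21 ± 0.197 (log2, adjusted p = 4.46e-07 in edgeR), with 1506, 1738, 3520 and 2835 CPM in the other kept cells. Hspb1 differed by -0.80 ± 0.182 (adjusted p = 0.00228 in edgeR), beside 1906, 874, 3688 and 2950 CPM there. In the other cells, too, Hspb1 was lower in the older library of each pair. Hspa1b and Hsp90aa1 were the other two. Without the members with RNA of other cells Hspa1a and Hspa1b passed, while Hspb1 (-0.71, adjusted p = 0.267 in edgeR) and Hsp90aa1 (-0.83, adjusted p = 0.446 in edgeR) did not. The metallothionein Mt1 was lower by 1.19 on the log2 scale (-1.19 ± 0.21, adjusted p = 7.05e-06 in edgeR), at 3251, 1368, 3324 and 2429 CPM in the members. The immediate early genes Dusp1, Nr4a1 and Jun were lower as well. Without those members Mt1, Dusp1 and Jun passed and Nr4a1 did not (-1.11, adjusted p = 0.306 in edgeR).

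Higher in the members relative to the others were Krt17 and the gap junction genes. Krt17 differed by 1.22 ± 0.272 (log2, adjusted p = 0.00155 in edgeR), at 585, 2982, 1875 and 1918 CPM, where the low value was the 2-month version 2 library. Gjb2 was at 20.3, 952, 68.2 and 44.0 CPM (log2 3.10 ± 0.448, adjusted p = 3.69e-09 in edgeR), so it was higher with age in the version 2 pair and lower in the version 3 pair. Gja1, another gap junction protein, was at 219, 1715, 336 and 299 CPM and differed by 1.199 ± 0.311 (adjusted p = 0.0172 in edgeR), with the same 2 directions. Lgals7 differed by 1.10 ± 0.152 (adjusted p = 3.84e-10 in edgeR) although its CPM in the members, given above, was lower in both older libraries. Its age difference in the other cells was -1.61, and suprabasal cells, which hold much Lgals7, were 21.3% of the kept cells at 2 months and 4.15% at 18 months in version 2. Their part in the Lgals7 difference was not tested. Without the members with RNA of other cells Krt17, Gjb2, Gja1 and Lgals7 passed. Without the 2-month version 2 library the Lgals7 difference turned to -0.32.

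Lower were immune and chemokine genes. Cd74, a chaperone of antigen-presenting cells, differed by -2.65 ± 0.21 (log2, adjusted p = 3.75e-32 in edgeR), at 1853, 712, 666 and 585 CPM, with 79.8%, 92.7%, 37.3% and 69.3% of its UMIs in 1 cell of each library, and it had a UMI in 4, 22, 29 and 24 members. Without the members with RNA of other cells it differed by -0.57 (adjusted p = 1.00 in edgeR), and H2-Ab1, H2-Eb1 and Cd207 did not pass there. Cd207, the marker of Langerhans cells, had all of its 2-month version 2 and all of its 12-month UMIs in 1 cell. Only Ccl2, Ccl7, Cxcl2 and Krt79 passed with every setting among another normalization, no filter, the gates of 3 and 10 UMIs, DESeq2, the keratinocyte comparator and the members without RNA of other cells. These 4 genes were each carried by few cells: Ccl2 was found in 2, 2, 12 and 6 members. When each library was left out in turn, 4 to 192 genes passed, 9 without the 2-month version 2 library, 51 without the 18-month, 4 without the 2-month version 3 and 192 without the 12-month library.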

How the data were processed

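Droplet-based 3' single-cell RNA libraries of 4 groups were used. The authors deposited unnormalized UMI counts, 1 whole number for each gene in each cell, made with Cell Ranger 2.0.1, STAR and Seurat 2.1.0 on GRCm38.p5 and mm10, per the submitters' processing notes, which give no roles. The version 3 files name software version 3.0.1, per the file headers. Each file holds 27999 genes. The settings of cell calling are not given in the sources used here. The files held 17130 barcodes. Cells needed 500 detected genes, 1000 UMIs and less than 10% of UMIs from mitochondrial genes; 13877 were kept, and 177, 221, 1468 and 1387 were removed per library.

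Members were chosen on raw UMIs as the report states. The members and the 31 gene lists (475 of 478 genes found) were chosen with earlier results of these data known. UMIs were summed over the members of each library and divided by their total for CPM. Ages were compared with edgeR 4.0.16 (R 4.3.3), TMM scaling, its default filter on low counts, chemistry as a covariate, a two-sided quasi-likelihood F-test and Benjamini-Hochberg adjustment at 0.05. The SE is the absolute log2 difference divided by the square root of F. The interaction used 8 sums, members and other kept cells of each library. DESeq2 1.42.0, other gates and filters, and leaving out libraries were alternatives. The tests were also tried on simulated counts with known changes. Each age and chemistry holds 1 library, so the spread between libraries of the same age and chemistry was not measured. The p-values rest on 1 residual degree of freedom per fit and on dispersions that edgeR estimates with information from all genes. The 2 mice of a sample are not separate in the files. Intervals are exact Clopper-Pearson for shares and exact conditional Poisson for ratios, at 95%.

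Scrublet's own threshold marked too few cells to be used, so members were kept, and leaving out the 3% of cells with the highest score, which held 14 members, was an alternative. Named genes were the 25 with the largest lowest fold against the other kept cells, the 12 in each direction with the largest smaller difference of the 2 pairs (prior count 0.5, at least 20 UMIs), the 5 of lowest p in each direction of the interaction, genes of the lists, and genes that separate follicle-only from Ly6a-only members. Thinned values, and shares without members with RNA of other cells, were added after the data had been seen for the kinds of member and for dividing members. Software also included Python 3.11.15, scanpy 1.11.5 and scipy 1.17.1.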

Additional observations from a re-analysis of the deposited data

Results flagged for a closer look

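The share of basal-type keratinocytes moved in opposite directions in the 2 pairs of libraries, by 0.994 percentage points from 2 to 18 months in version 2 and by -0.233 from 2 to 12 months in version 3. This difference between the pairs was not tested, since each pair holds 1 library per age.

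Of 60 genes of the members' lists that were looked at, 17 had ratios on opposite sides of 1 in the 2 pairs, each with an exact 95% interval (counting error only) that left out 1. None of these contrasts between the pairs was tested. How many of all genes meet the same criterion was not counted, so the 17 of 60 cannot be set against a background. Over all 6808 genes tested for age, 3167 moved the same way in both pairs.

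One group of genes was higher at 18 months and lower at 12 months. The ratio to the 2-month library was 6.68 at 18 and 0.618 at 12 months for Lhx2, 3.05 and 0.626 for Sox9, and, for Lgr5, 12.6 with its 0 UMIs at 2 months in version 2 set to 3 (exact lower limit 10.0) and 0.418. It was 16.5 and 0.366 for Il11ra1, an interleukin 11 receptor, 20.4 and 0.521 for Vdr, 3.2 and 0.453 for Tcf7l2, a Wnt effector, and 1.46 and 0.623 for Sostdc1. Gjb2 had 46.8 and 0.646, and Lgals1, a galectin that mesenchyme also expresses, 3.83 and 0.312.

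The other genes went the other way. The ratios were 0.312 and 1.37 for Krt14 and 0.439 and 1.33 for Krt5, both rule genes, 0.0642 and 1.23 for Krt16 and 0.271 and 1.51 for Krt6a, keratins of activated epidermis. They were 0.432 and 1.43 for Ly6a, 0.477 and 1.27 for Ifitm3, an interferon-induced membrane protein, 0.304 and 2.34 for the glycerol channel Aqp3, and 0.0177 and 1.73 for Stfa3. Krt6a, Krt16 and Stfa3 have near-identical relatives among which reads may be split. In Stfa3, 1 cell held 87.5% of the UMIs at 18 months and 50.5% at 12 months. In Krt6a, 1 cell held 54.5% at 2 months in version 2 and 47.7% at 12 months. The ratios of these 2 genes therefore rest in large part on single cells. Aqp3 was listed with the follicle genes.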

How the results depend on the processing

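No gene passed in the age comparison with another normalization, DESeq2, no chemistry term, gates of 3 or 10 UMIs, a mitochondrial limit of 5%, or without the members with RNA of other cells or with high Scrublet scores. Without a filter on low counts 23 of 15179 genes passed, with 12 months counted as young 265, and leaving out each library (with no chemistry term) gave 0 to 36, with 2, 36, 0 and 15 in library order. The interaction gave 21 genes with DESeq2, 252 with 12 months as young, 15 with the keratinocyte comparator, 35 without members with RNA of other cells, and 4 to 192 (9, 51, 4 and 192) without each library. Of its 130 genes, 121 were among the 128 with the other normalization and 33 among the 35. The share at 18 months was 1.52% with a gate of 10 UMIs, 0.878% at 2000 UMIs per cell and 1.40% without members with RNA of other cells, which gave 0.936% at 2 months in version 3. Directions turned for Slpi (-1.49 without the 12-month library), Mki67 (-0.46 without members with RNA of other cells, -0.47 without the 12-month library) and Lgals7 in the interaction (-0.32 without the 2-month version 2 library). The cause was not tested. Of the medians of gene lists, 345 values stayed within the spread of the pairs and 46 did not. That spread was wider for lists whose pairs differed more, so these counts do not show that such lists were stable. The low depth of the 18 members at 2 months in version 2 (246102 UMIs) limits the version 2 pair. Pairing by replicate number was not possible because the labels give the older groups 1 replicate each. The pairs used here are those of chemistry, which sets each older library beside a 2-month library and was the covariate.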
